A study of Mus musculus with 5 samples.

Results

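The interferon regulatory factors are a family of transcription factors, and 8 of its genes, Irf1, Irf2, Irf3, Irf4, Irf5, Irf7, Irf8 and Irf9, were followed in tumor macrophages. They were taken by symbol from the 24982 rows of the authors' deposited gene table. Each has 1 row of its own, and all 8 are among the 12311 rows that the authors' test covered.

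RNA was sequenced from ex vivo macrophages of mouse tumors grown from 9609, a fibrosarcoma line of the MCA type (MCA commonly stands for methylcholanthrene, a carcinogen). The MEK1-hi group has 3 libraries, with MEK1-hi as line, genotype and exosome treatment. The MEK1-low group has 2 libraries, with MEK1-low as line and genotype and MEK1-low (GFP) exosomes as treatment, which the table's header calls GFP_exo. Both groups share the 9609 tumor and receipt of exosomes, small vesicles shed by cells, so neither group is exosome-free. MEK1 is the kinase that phosphorylates ERK. The sources used here do not give the mouse strain, age or number of animals, any pooling of animals, or the way macrophages were isolated. Line, genotype and exosome treatment change together between the groups, so their parts in any difference cannot be told apart. The question was how transcription factors of the interferon response differ between macrophages of the MEK1-hi and MEK1-low groups.

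Interferon regulatory factors share an N-terminal DNA-binding region with a repeat of tryptophans and bind variants of the sequence GAAA. IRF1 is induced by interferon-gamma through GAS elements and switches on genes of antigen presentation and antimicrobial defense, while IRF2 binds the same sites and can oppose it. IRF8 is a lineage factor of monocytes and cross-presenting dendritic cells, and IRF4 takes part in alternative activation of macrophages and in type 2 dendritic cells. IRF3, IRF7 and IRF5 are activated by phosphorylation downstream of nucleic acid sensors and Toll-like receptors, and IRF9 is the DNA-binding subunit of ISGF3, the complex that answers type I interferon. Transcript levels do not measure that phosphorylation.

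The table holds 1 value per gene and group, in FPKM (fragment counts scaled by transcript length and by sequencing depth), pooled by the authors over the libraries. Values per library and SDs are therefore absent from the account. Error enters through the authors' Cuffdiff test, whose q value is its p-value adjusted over all tested rows, and a gene was called different at a q under 0.05. Since no label ties a library to an animal, p and q cover the spread between these libraries alone, and that spread may be technical. The planned depth was about 25000000 reads of 100 bases per sample, and the actual depth is unknown from the table. As a check of the labelled cell type, the macrophage markers Cd68, Csf1r and Adgre1 had 741, 628 and 411 FPKM in MEK1-hi, against 785, 680 and 388 FPKM in MEK1-low, in the authors' deposited table. Of 8 macrophage markers, 0 were called higher and 0 lower by Cuffdiff, and 0 had an unadjusted p under 0.05. The matching shares over all tested rows were 0.999%, 0.325% and 6.08%.

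The promoters of Irf1, Irf8 and Irf2 are shown because these are the members with an unadjusted p under 0.05 in the comparison. Each run is the 250 bases before the annotated start on the gene's own strand, from RefSeq on GRCm38.p6, which is the mm10 assembly. All 8 members matched the RefSeq table, and the start used for each equals the start of its row in the authors' deposited table. Capitals mark matches to 4 motifs searched on both strands. They are the GAS element TTCNNNGAA of interferon-gamma signalling, the interferon-stimulated response element (ISRE), GAAA, any 2 bases and GAAA again, bound by interferon regulatory factors, the composite of an ETS factor such as PU.1 with an interferon regulatory factor, GGAA, any 2 bases and GAAA, and the NF-kB motif, GGGA, any 4 bases and CC.
Irf1, chr11:53769764-53770013, + strand: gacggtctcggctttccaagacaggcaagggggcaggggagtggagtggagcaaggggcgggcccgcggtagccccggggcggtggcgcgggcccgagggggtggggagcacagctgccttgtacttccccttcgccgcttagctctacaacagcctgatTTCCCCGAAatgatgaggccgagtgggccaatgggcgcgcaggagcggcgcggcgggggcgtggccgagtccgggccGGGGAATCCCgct
Irf8, chr8:120736108-120736357, + strand: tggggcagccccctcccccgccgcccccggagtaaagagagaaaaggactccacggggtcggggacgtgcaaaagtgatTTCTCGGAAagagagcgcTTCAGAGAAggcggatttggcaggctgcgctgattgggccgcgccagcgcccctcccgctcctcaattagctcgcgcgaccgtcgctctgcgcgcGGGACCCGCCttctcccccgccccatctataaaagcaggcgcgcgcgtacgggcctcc
Irf2, chr8:46739495-46739744, + strand: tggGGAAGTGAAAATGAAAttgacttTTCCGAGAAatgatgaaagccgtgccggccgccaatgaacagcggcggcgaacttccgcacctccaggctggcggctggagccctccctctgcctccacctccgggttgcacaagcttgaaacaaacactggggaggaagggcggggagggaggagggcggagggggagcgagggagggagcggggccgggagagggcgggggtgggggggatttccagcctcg

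In the Irf1 promoter the GAS match TTCCCCGAA lies at -90 to -82 from the start, and an NF-kB match GGGGAATCCC, on the other strand, at -13 to -4. The Irf8 promoter has 2 GAS matches, TTCTCGGAA at -171 to -163 and TTCAGAGAA at -153 to -145, and an NF-kB match GGGACCCGCC at -58 to -49. The Irf2 promoter has a GAS match, TTCCGAGAA, at -224 to -216, and near its far end an ETS composite match, GGAAGTGAAA, that overlaps the ISRE match GAAAATGAAA. Among the members, a GAS match was present in 3 of 8 windows, those of Irf1, Irf2 and Irf8, and in 7.02% of all 32851 promoter windows of the same length. An ISRE match was in 1 of 8 members, against 2.98% of all windows. The ETS composite was in 1 of 8 members, against 2.30%, and the NF-kB motif in 3 of 8 (Irf1, Irf4 and Irf8), against 17.6%. The windows of Irf3, Irf5, Irf7 and Irf9 held none of these letters. A match describes letters and is not a measured binding site.

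**Figure D1:**
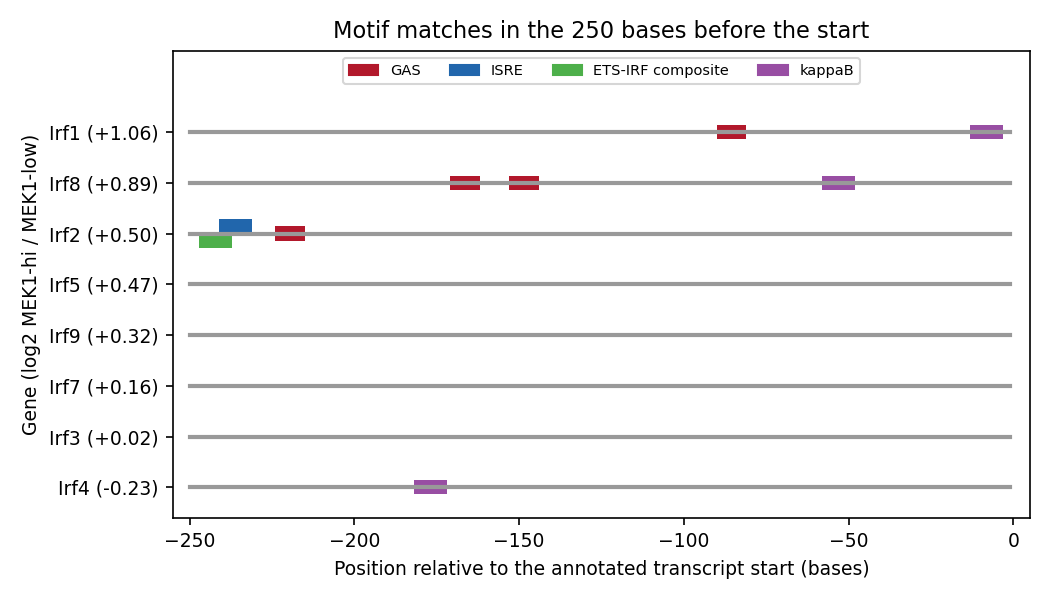
Positions of motif matches in the 250 bases before the start of each of the 8 genes, on an axis in bases from the start. Genes are ordered from the highest to the lowest log2 fold change of MEK1-hi over MEK1-low, given in parentheses. GAS matches stand in the 3 upper rows, Irf1, Irf8 and Irf2.

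Irf1 and Irf8 rose in MEK1-hi macrophages at the q threshold of 0.05, and no other member was called. Both calls were lost at a q threshold of 0.01, under the Benjamini-Yekutieli adjustment of the authors' deposited p (0.163 for Irf1 and 0.344 for Irf8) and with a normal p from the deposited statistic (adjusted to 0.9999 for both). The 0.01 threshold left 91 rows, as many as share the smallest Cuffdiff p of 5e-05. The Benjamini-Yekutieli adjustment left 0 rows of the whole table, even at that smallest p. The loss under that adjustment is therefore not particular to Irf1 or Irf8. The loss at the 0.01 threshold was not general, since 91 of the 163 called rows kept their call there. Irf1 and Irf8 were not among those rows. A 2-fold minimum removed Irf8. The authors' deposited table called 2 of the 8 members higher and 0 lower, where 0.999% of all tested rows were called higher and 1.32% were called in either direction. Of the members, 7 lay above 0 and 1 below, against 46.2% of all tested rows above 0. The median log2 fold change of the 8 was 0.40, beside -0.02 over all tested rows. Below an unadjusted p of 0.05 stood 3 of 8 members with higher values and 0 with lower, where 3.5% of all tested rows were higher, 2.58% lower and 6.08% either. The members' FPKM summed to 952 in MEK1-hi and 653 in MEK1-low. Irf1 and Irf8 together made up 70.7% of that difference. These 2 were picked by their calls in the same data, so the share is a description and not further support. Irf1 alone gave 159 FPKM of the difference, and Irf5 and Irf7, which were not called, gave 39.7 and 31.5 FPKM.

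**Figure D2:**
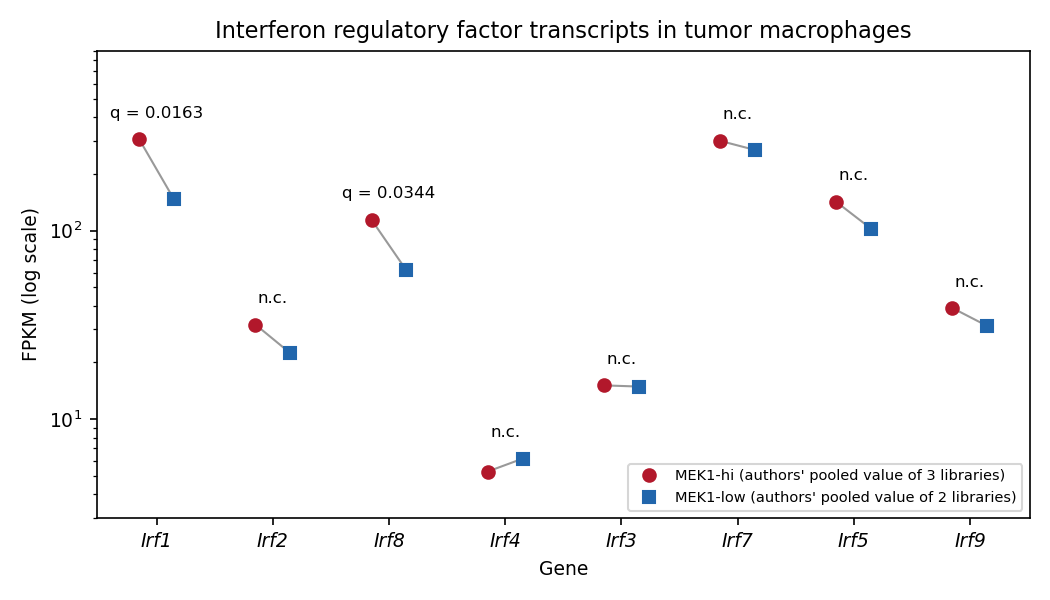
Pooled FPKM of each gene (log scale) in MEK1-hi (red circles, 3 libraries pooled) and MEK1-low (blue squares, 2 libraries pooled), as deposited. No error bars can be drawn from pooled values. The authors' q is printed over called genes and n.c. marks genes not called. Irf1 and Irf8 have the steepest lines, Irf7 and Irf3 are nearly flat, and Irf4 is the one gene with the lower value in MEK1-hi.

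Irf1, the activator induced by interferon-gamma, lies on chromosome 11 at 53770014 to 53778374 of mm10, and its longest coding transcript in GENCODE M21 has 10 exons. It had 305 FPKM in MEK1-hi, against 146 FPKM in MEK1-low, in the authors' deposited table. That is a 2.08-fold rise (1.06 on the log2 scale), with a statistic of 2.57 in the authors' deposited table, p = 0.00015 and q = 0.0163. Of the tested rows, 207 (1.68%) had a higher log2 fold change. In MEK1-hi, Irf1 was the most abundant of the members and stood level with Irf7, at a ratio of 1.02, while in MEK1-low it had 0.546 of the Irf7 level.

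Irf2, the factor that competes with IRF1 for its sites, did not pass the test. On chromosome 8 at 46739745 to 46847458, it had 31.8 FPKM in MEK1-hi, against 22.4 FPKM in MEK1-low, in the authors' deposited table (log2 fold change 0.50, p = 0.038, q = 0.716). The ratio of Irf1 to Irf2 FPKM was 9.60 in MEK1-hi and 6.53 in MEK1-low. The ratio has no error, since each group has 1 pooled value, and its difference was not tested.

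Irf8, the monocyte and dendritic cell lineage factor, lies on chromosome 8 at 120736358 to 120756692. It had 114 FPKM in MEK1-hi, against 61.6 FPKM in MEK1-low, in the authors' deposited table. That is a 1.85-fold rise (0.89 on the log2 scale), with a statistic of 2.36 in the authors' deposited table, p = 0.0004 and q = 0.0344, and 300 tested rows (2.44%) had a higher log2 fold change. Markers of cross-presenting dendritic cells, which express Irf8 strongly, moved with it. In the authors' deposited table, 3 of 6 such markers were called higher and 0 lower, against 0.999% of all tested rows called higher. Xcr1, Clec9a and Cadm1 had 4.17, 5.58 and 29.1 FPKM in MEK1-hi, against 1.53, 0.931 and 10.6 FPKM in MEK1-low, as the authors' deposited table gives them. Wdfy4, Tlr3 and Itgae were not called. The summed level of all 6 markers was 68.8 FPKM in MEK1-hi and 39.4 FPKM in MEK1-low, and no marker of the list was at 0. In bulk RNA more cells of a type and more RNA per cell cannot be told apart, and the part of these cells in the Irf8 result was not tested.

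Irf4, the factor of alternative activation, was the least abundant member and was not called. On chromosome 13 at 30749233 to 30766981, it had 5.28 FPKM in MEK1-hi, against 6.18 FPKM in MEK1-low, in the authors' deposited table (log2 fold change -0.23, p = 0.42, q = 0.9998). Irf8 exceeded Irf4 by 21.6 times in MEK1-hi and by 9.96 times in MEK1-low. Markers of type 2 dendritic cells, another source of Irf4, had 1 of 6 called lower, Mgl2, and 0 called higher. Of all tested rows, 0.325% were called lower. The marker values were as follows. Their sum was 338 FPKM in MEK1-hi and 341 FPKM in MEK1-low, with Sirpa, which macrophages also make, giving most of it (309 and 280 FPKM). The 6 markers were split, with 3 above 0 and 3 below. Cd209a and Mgl2 had 4.64 and 6.76 FPKM in MEK1-hi, against 9.68 and 35.1 FPKM in MEK1-low. Flt3 had 5.02 FPKM in MEK1-hi, against 2.42 FPKM in MEK1-low. Of the B cell markers, another type that uses IRF4 and IRF8, Ms4a1 and Cd79a had 0.212 and 0.348 FPKM in MEK1-hi, against 0.101 and 0.349 FPKM in MEK1-low, in the authors' deposited table. The 2 tested B cell markers were Cd79b and Ebf1, and neither was called. They had 8.91 and 1.67 FPKM in MEK1-hi, against 8.05 and 2.45 FPKM in MEK1-low.

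The factors that act downstream of sensors were not called. Irf7, the amplifier of type I interferon, was the most abundant member in MEK1-low. It had 299 FPKM in MEK1-hi, against 268 FPKM in MEK1-low, in the authors' deposited table (log2 fold change 0.16, q = 0.9998), and lies on chromosome 7 at 141263183 to 141266424. Irf3, which is present before infection and starts interferon-beta transcription, had 15.1 FPKM in MEK1-hi, against 14.9 FPKM in MEK1-low (0.02, q = 0.9998, chromosome 7, 44997648 to 45002848), also in the authors' deposited table. Irf5, which drives inflammatory cytokines, had 142 FPKM in MEK1-hi, against 102 FPKM in MEK1-low, in the authors' deposited table (log2 fold change 0.47, p = 0.112, q = 0.9998). The Irf5 row's locus, chromosome 6 at 29526625 to 29609849, also spans Tnpo3.

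Irf9, the DNA-binding subunit of ISGF3, was not called either. It had 38.9 FPKM in MEK1-hi, against 31.2 FPKM in MEK1-low, in the authors' deposited table (log2 fold change 0.32, p = 0.18, q = 0.9998, chromosome 14, 55603985 to 55610030). The order of levels in MEK1-hi was Irf1, Irf7, Irf5, Irf8, Irf9, Irf2, Irf3 and Irf4. In MEK1-low it was the same except that Irf7 stood above Irf1. With 1 pooled value a group, no spread says which neighbors in that order differ. In MEK1-hi, Irf1 and Irf7 each exceeded the FPKM of 98.2% of all tested rows, whereas Irf4 exceeded that of 35.3%.

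Missing the threshold does not show that the other members were equal between groups. Among tested rows with at least 10 FPKM in the higher group, 0 of 159 with a log2 fold change between 0.5 and 0.75 were called, and 0 of 679 between 0.25 and 0.5. The values of Irf2, Irf5 and Irf9 fall in these ranges. Between 0.75 and 1, where Irf8 lies, 22 of 66 were called, and between 1 and 1.25, where Irf1 lies, 37 of 44. Whether any pair of members responded differently from each other could not be tested without values per library.

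**Figure D3:**
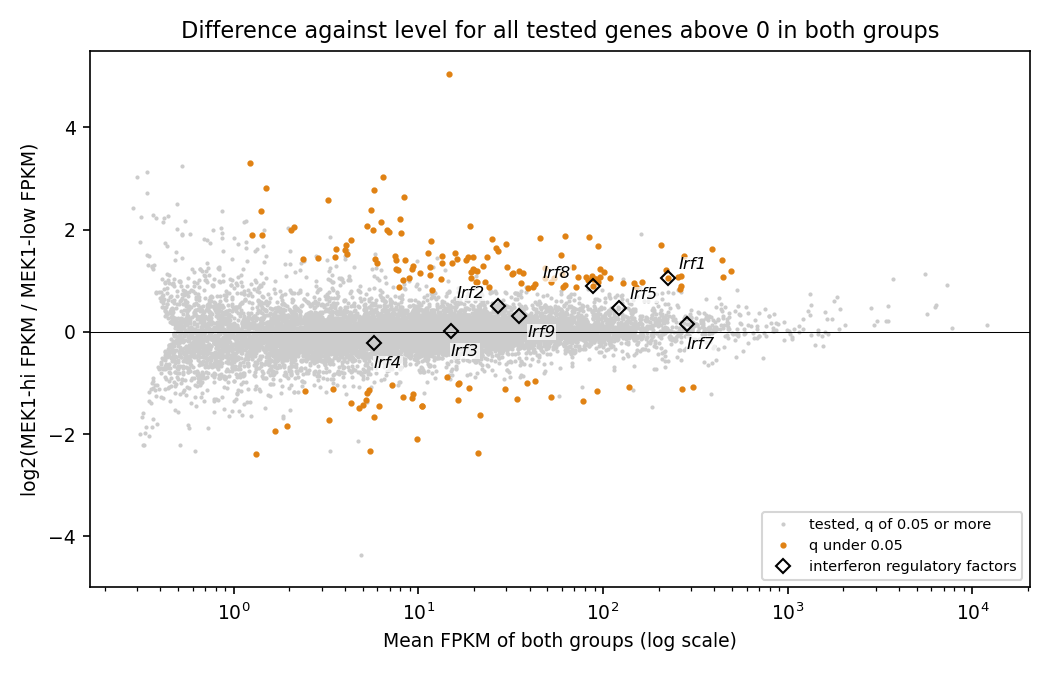
Difference between groups (log2 of MEK1-hi over MEK1-low FPKM) against mean FPKM of both groups (log scale) for tested rows above 0 in both groups. Grey points were not called, orange points had q under 0.05, and open diamonds are the 8 interferon regulatory factors. Irf1 and Irf8 lie among the called genes, and the other 6 in the band of genes that were not called.

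Some members overlap other genes, and the strand setting of the authors' counting is not given in the sources used here. Whether reads of the overlapping parts were assigned to the members was not tested. In GENCODE M21, Irf5 overlaps the convergent Tnpo3 over 1045 bases, and Irf3 overlaps the divergent Bcl2l12 over 1065 bases. Tnpo3 and Bcl2l12 had 20.0 and 8.03 FPKM in MEK1-hi, against 23.2 and 8.79 FPKM in MEK1-low, and neither was called in the authors' deposited table. Irf1 overlaps the opposite-strand gene Gm17334 over 907 bases, and all of Irf8 lies within the long read-through model Gm20388. The nearest tabled neighbors of Irf4 within 50 kb, Dusp22 and Exoc2, were not called. Near Irf9, Psme2, a proteasome activator subunit 12458 bases away, was called higher, with 16.7 FPKM in MEK1-hi, against 5.76 FPKM in MEK1-low (q = 0.0344), in the authors' deposited table.

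The genes nearest to Irf1 in level in both groups, by Euclidean distance of log2 FPKM over the 2 group values, were Fgl2 (distance 0.13), which encodes a fibrinogen-like protein, the MHC class I gene H2-Q4 (0.20) and the phagosomal metal transporter gene Slc11a1 (0.22). Fgl2 was called higher (q = 0.00676), and H2-Q4 (q = 0.081) and Slc11a1 (q = 0.153) were not, in the authors' deposited table. For Irf8 they were the interferon-induced Ifitm1 (distance 0.11, q = 0.0118), the lysosomal amidase gene Naaa (0.11, q = 0.0118) and Id3 (0.11, q = 0.0531), which encodes an inhibitor of DNA binding, with q from the authors' deposited table. Likeness over 2 values is a description of level and says nothing of shared control.

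Of 18 listed IRF1 targets, 12 were called higher and 0 lower in the authors' deposited table, where 0.999% of all tested rows were called higher. The target lists were chosen with earlier results of these data known, so such counts are descriptions and not independent support. All 18 lay above 0, and their median log2 fold change was 1.09. Gbp2, a GTPase that attacks the vacuoles of intracellular pathogens, had 316 FPKM in MEK1-hi, against 97.4 FPKM in MEK1-low (q = 0.00676), in the authors' deposited table. Nos2, the inducible nitric oxide synthase, had 6.73 FPKM, against 1.95 FPKM in MEK1-low (q = 0.00676), and Ciita, the transactivator of MHC class II genes, 16.4 FPKM, against 6.79 FPKM in MEK1-low (q = 0.00676), by the authors' deposited table. Among the targets not called, Casp1 had a log2 fold change of 0.74, Il12b 1.05 and Il15 0.17. Many of these targets also answer other interferon-activated factors directly, so the list does not isolate IRF1, and Gbp genes have near-identical copies between which reads could be split.

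No listed target of IRF8 was called, while 3 listed targets of IRF4 were called lower. Of 10 IRF8 targets, 0 were called higher and 0 lower by Cuffdiff. Over all tested rows, 0.999% were called higher and 0.325% lower, so a count of 0 in 10 says little about these targets. Below an unadjusted p of 0.05 stood 2 higher and 0 lower (median 0.31), where 3.5% of all tested rows were higher and 2.58% lower. The most abundant were Cst3, which encodes cystatin C, with 2222 FPKM in MEK1-hi and 1628 FPKM in MEK1-low, and Ctsc, which encodes cathepsin C, with 349 FPKM in MEK1-hi and 291 FPKM in MEK1-low, as given by the authors' deposited table. Of 8 IRF4 targets, 3 were called lower and 0 higher, where 0.325% of all tested rows were called lower, and 7 of the 8 lay below 0 (median -1.10). This list too was chosen with earlier results of these data known. Arg1, the arginase of alternative activation, fell to 10.6 FPKM in MEK1-hi, against 32.8 FPKM in MEK1-low (q = 0.00676), in the authors' deposited table. The chemokine gene Ccl17 had 3.73 FPKM, against 15.9 FPKM in MEK1-low (q = 0.0276), and the lectin gene Mgl2 6.76 FPKM, against 35.1 FPKM in MEK1-low (q = 0.00676), in the authors' deposited table. Mgl2 is also a marker of type 2 dendritic cells, and Irf4 itself was not called. The list does not isolate IRF4, and the part of IRF4 in these values was not tested.

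Targets of ISGF3, the type I interferon complex that holds IRF9, had 0 of 23 called higher and 0 lower by Cuffdiff. Over all tested rows, 0.999% were called higher and 0.325% lower, so a count of 0 in 23 says little about these targets. Below an unadjusted p of 0.05 stood 2 higher and 0 lower (median 0.06), where 3.5% of all tested rows were higher and 2.58% lower. Isg15, a ubiquitin-like modifier, had 231 FPKM in MEK1-hi, against 178 FPKM in MEK1-low, and Zbp1, a nucleic acid sensor, 154 FPKM, against 98.7 FPKM in MEK1-low, in the authors' deposited table. Of 8 IRF3 and IRF7 targets, 5 were tested and 2 were called higher, the chemokine genes Ccl5 (1.85-fold, q = 0.0315) and Cxcl10 (2.10-fold, q = 0.0465), in the authors' deposited table. Of all tested rows, 0.999% were called higher. Cxcl10 is on the IRF1 list too. The interferon-alpha genes Ifna2, Ifna4 and Ifna5 were not tested, at 0.129 FPKM or less in both groups of the authors' deposited table. Ifnb1, the interferon-beta gene, had 2.62 FPKM in MEK1-hi, against 1.23 FPKM in MEK1-low (q = 0.94), in the authors' deposited table. Of 5 IRF5 targets, 4 were tested and 0 were called higher or lower by Cuffdiff, and 2 had higher values below an unadjusted p of 0.05. The shares over all tested rows were 1.32% called in either direction and 3.5% higher below that unadjusted p. Tnf had 216 FPKM in MEK1-hi and 213 FPKM in MEK1-low, and Il6 had 8.79 FPKM in MEK1-hi and 4.55 FPKM in MEK1-low, as given by the authors' deposited table. No test compared the lists with each other.

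**Figure D4:**
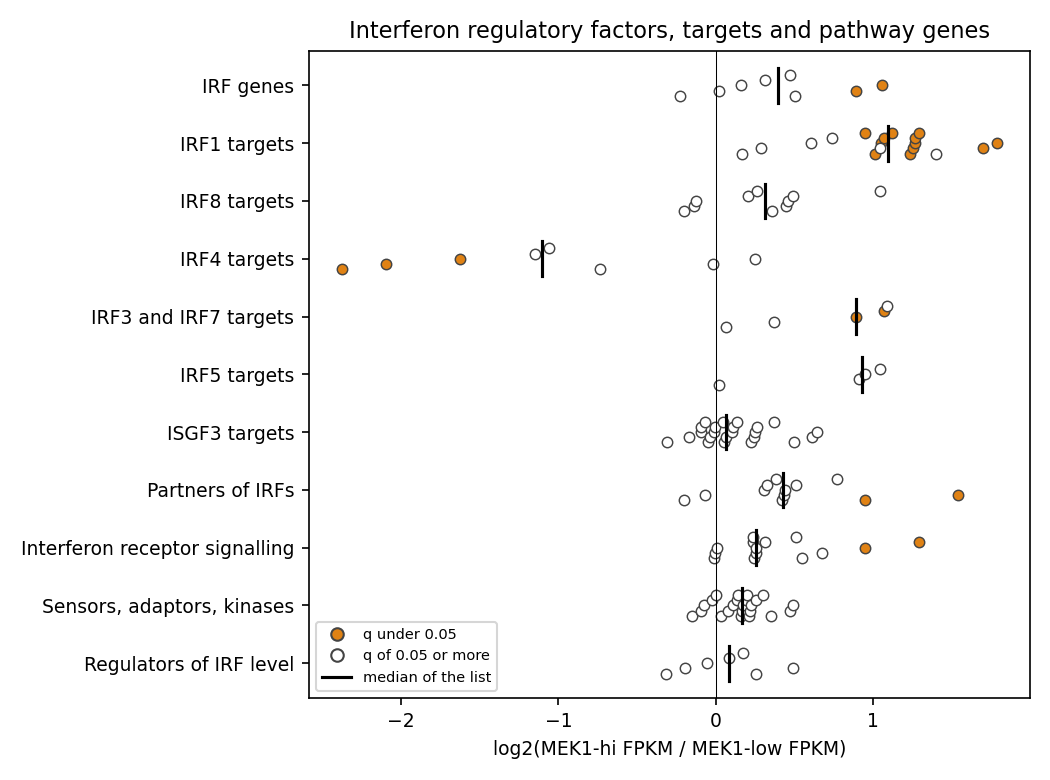
Log2 fold change of MEK1-hi over MEK1-low for the tested genes of each list, with filled orange points for genes called at q under 0.05, open points for the rest and a bar at the list median. Points are spread vertically only for legibility, and some genes stand on more than 1 list. The lists were chosen with earlier results of these data known. The IRF1 targets lie above 0 with a median of 1.09, the IRF4 targets mostly below 0 with a median of -1.10, and the ISGF3 targets near 0.

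Partner proteins of the family include PU.1 and the BATF factors. Of 12 partner genes, 2 were called higher and 0 lower (median 0.43). Over all tested rows, 0.999% were called higher and the median was -0.02. Batf2, an interferon-induced partner of IRF1, had 23.6 FPKM in MEK1-hi, against 8.08 FPKM in MEK1-low (2.91-fold, q = 0.00676), in the authors' deposited table. Batf3, the IRF8 partner of cross-presenting dendritic cells, had a log2 fold change of 0.77 (q = 0.843), and Spi1, which encodes PU.1, 0.42 (q = 0.96), with q from the authors' deposited table. Stat2, whose row is joined with Apof, had 0.51 (q = 0.607 in the authors' deposited table).

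Upstream of the family, 2 of 14 genes of interferon receptor signalling were called higher and 0 lower (median 0.26), against 0.999% of all tested rows called higher. One was Socs1, a feedback inhibitor of JAK kinases, with 31.8 FPKM in MEK1-hi, against 13.0 FPKM in MEK1-low (q = 0.00676), in the authors' deposited table. The receptor genes Ifngr1, Ifngr2, Ifnar1 and Ifnar2 had log2 fold changes of 0.24, 0.25, 0.01 and 0.25, none called. Of 23 sensors, adaptors and kinases that lead to IRF3, IRF5 and IRF7, 0 were called higher or lower by Cuffdiff, against 1.32% of all tested rows. At an unadjusted p under 0.05, 1 of the 23 was higher, where 3.5% of all tested rows were. That gene was Tmem173 (STING), with 81.3 FPKM in MEK1-hi, against 58.6 FPKM in MEK1-low (q = 0.759), and the kinase adaptor gene Tank had 99.1 FPKM in MEK1-hi, against 86.2 FPKM in MEK1-low, in the authors' deposited table. Of 7 regulators of the factors' own level, 0 were called and 0 had an unadjusted p under 0.05, against 1.32% and 6.08% of all tested rows. The demethylase gene Kdm6b, which acts on Irf4 in mouse macrophages, had 127 FPKM in MEK1-hi, against 132 FPKM in MEK1-low, in the authors' deposited table.

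Markers of other cells also differed in level. Of 6 fibroblast markers, 1 was called lower, Thy1, and 0 higher, with a sum of 442 FPKM in MEK1-hi and 746 FPKM in MEK1-low in the authors' deposited table. Of all tested rows, 0.325% were called lower. The marker lists of NK cells, T cells, B cells, neutrophils, plasma cells and plasmacytoid dendritic cells had no called gene, against 1.32% of all tested rows. NK cell markers summed to 10.4 FPKM in MEK1-hi, against 3.99 FPKM in MEK1-low. That sum was set mostly by Nkg7, with 8.66 FPKM in MEK1-hi and 3.00 FPKM in MEK1-low. Gzma and Prf1 had 0.670 and 0.732 FPKM in MEK1-hi, against 0.650 and 0.151 FPKM in MEK1-low. Ncr1, Klrb1c and Eomes were not tested, at 0.182 FPKM or less in both groups. T cell markers summed to 29.0 FPKM in MEK1-hi, against 32.6 FPKM in MEK1-low, a sum set mostly by Cd4, with 19.3 FPKM in MEK1-hi and 27.8 FPKM in MEK1-low. The other 4 tested T cell markers had higher values in MEK1-hi, Cd3e, Cd3d, Cd3g and Cd8a at 1.74, 1.43, 3.64 and 2.88 FPKM, against 0.889, 0.680, 2.07 and 1.15 FPKM in MEK1-low (list median of the log2 fold change 0.97). B cell and neutrophil markers summed to 11.3 and 63.3 FPKM in MEK1-hi, against 11.0 and 55.9 FPKM in MEK1-low. Plasma cell and plasmacytoid dendritic cell markers, some of which (Xbp1, Bst2) macrophages also make, summed to 122 and 537 FPKM in MEK1-hi, against 118 and 471 FPKM in MEK1-low. The part of these cells in the values of the interferon regulatory factors was not tested.

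**Figure D5:**
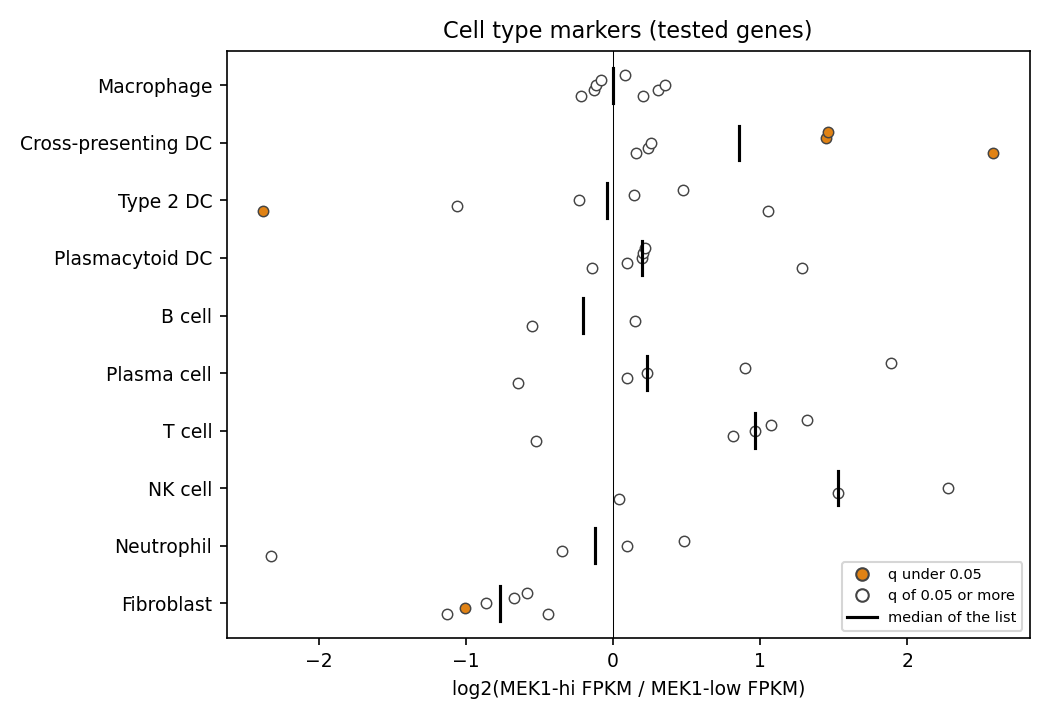
Log2 fold change of MEK1-hi over MEK1-low for the tested marker genes of 10 cell types, with filled orange points for genes called at q under 0.05, open points for the rest and a bar at each list's median. Markers of cross-presenting dendritic cells lie above 0 with 3 called, fibroblast markers lie below 0 with Thy1 called, and macrophage markers lie around 0 with none called.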

How the data were processed

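RNA-seq of 5 libraries was used, 3 of them MEK1-hi and 2 MEK1-low. Per the labels' protocols, libraries were stranded poly(A) libraries. Cuffdiff, Cufflinks, TopHat, FastQC 0.73 and mm10 are listed without a role, per the submitters' processing notes. The authors' annotation is not given in the sources used here. What the authors deposited is a Cuffdiff table with 1 pooled FPKM per gene and group. The statistic is the authors' deposited score, and its p-value and q-value were likewise deposited by the authors. Each q matched a Benjamini-Hochberg adjustment of p over the 12311 tested rows, to within 5.0e-07. The smallest p is 5e-05, shared by 91 rows.

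The log2 fold change was computed here as MEK1-hi over MEK1-low FPKM with no pseudocount. The deposited fold change column was not used, because some of its cells hold spreadsheet error text. FPKM values are not counts and no library values were analysed, so no count model, SD or interval was made. Loci are the authors', written 1-based.

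The members, the 10 pathway lists and the 10 marker lists were chosen with earlier results of these data known. Of 184 listed symbols, 183 were found, older ones through RefSeq synonyms. Named genes followed a rule. It took all 8 members and, per list, up to 4 called genes with the largest absolute log2 fold change or, with none called, the 2 most abundant. It added the first 3 markers of each cell type, neighbors within 50 kb and the 3 genes nearest in level. Other genes named (Casp1, Il12b, Il15, Batf3, Spi1, Stat2, the receptor genes, Ifnb1, the interferon-alpha genes, Wdfy4, Tlr3, Itgae, Sirpa, Cd8a, Prf1 and Eomes) were chosen after their values were seen. Some items are not reported here, although list counts include them. Adjustment and motif search were checked on simulated data. Alternatives changed the threshold, adjustment, source of p, FPKM filter, fold, scaling and pseudocount. Software was matplotlib 3.10.9, scipy 1.17.1, pandas 2.3.3 and numpy 2.4.6 under Python 3.11.15.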

Additional observations from a re-analysis of the deposited data

How the results depend on the processing

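The call of 2 members, Irf1 and Irf8, was unchanged at a q threshold of 0.10, when adjusted over rows with an FPKM of at least 1 or of at least 5, with rows of the symbol alone, and with at least a 1.5-fold difference. A 2-fold minimum left 1 member, since Irf8 (q = 0.0344) falls under it. A q threshold of 0.01 left 0 members (Irf1 at 0.0163, Irf8 at 0.0344) and 91 of the 163 called rows. The Benjamini-Yekutieli adjustment of the authors' deposited p left 0 members (adjusted p = 0.163 for Irf1 and 0.344 for Irf8), 0 pathway genes and 0 rows in all. Even rows at the smallest Cuffdiff p, 5e-05, did not pass it, so it could not separate any gene from the rest. With a normal p from the deposited statistic, 0 members (adjusted p = 0.9999 for both Irf1 and Irf8), 2 pathway genes (of 18 at the main threshold) and 15 rows in all were called, so the calls rest on the authors' own p values. Below an unadjusted p of 0.05 in the authors' deposited table there were 749 rows, 31 pathway genes and 3 members, with Irf2 (p = 0.038) added. Equal FPKM sums lowered every log2 fold change by 0.10, which turned Irf3 to -0.078, and no other member changed sign under any scaling or with a pseudocount of 1 FPKM. The q values were not recomputed for scalings. Motif counts over the members were the same in the whole 300-base windows, an alternative chosen after seeing the data. No paired analysis was possible because the table holds 1 pooled column per group, and leaving out each library was not run for the same reason. The deposited fold change column was not run as an alternative. The actual depth is unknown, so no detection limit is given.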
